A study of Mus musculus with 10 samples.

Results

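The mitochondrial ribosome is assembled from ribosomal RNA encoded in mitochondrial DNA and from proteins encoded in the nucleus, which are made in the cytosol and imported. It translates the few respiratory-chain proteins that mitochondrial DNA encodes. Its large subunit forms the peptide bond and its small subunit reads the messenger RNA, and the protein genes of the pair are named Mrpl and Mrps in mouse. The genes described here were all symbols of the count tables that begin with Mrpl or Mrps followed by a number, which gave 77 of 32531 symbols, 48 of the large and 29 of the small subunit. The choice used names and no measured value. In structures of the mammalian mitoribosome the products of Mrps18a and Mrps30 sit in the large subunit, and the product of Mrps36 is now assigned to a dehydrogenase complex, but all 3 were kept under their names.

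RNA came from whole striatum of adult mice of the Chat-TRAP line DW167, which carries the transgene Chat-EGFP/Rpl10a, a ribosomal protein fused to green fluorescent protein under control of Chat. Chat encodes the enzyme that makes acetylcholine, so the tag marks cytosolic ribosomes of cholinergic interneurons, and antibodies to the fluorescent protein pull down the ribosomes with their messenger RNA. All groups share this line and purification. Mice of 3 groups gave 3 immunopurified libraries each: saline self-administration, Yoked control and cocaine self-administration. A further 1 library of total RNA (the input) came from saline self-administration. Whether a library is 1 animal or a pool, and what the yoked animals received, is not given in the labels, so p values measure only the spread between these libraries. Immunopurified RNA is RNA on tagged cytosolic ribosomes and not the mitoribosome itself.

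Gene counts ran from 24526800 to 75220900 in the immunopurified libraries and reached 40912200 in the input (6 significant digits), and levels are given as CPM, gene counts scaled to a total of 1000000 in each library. Saline libraries were run on lane 3, cocaine and yoked libraries on lane 4 and the input on lane 5, so group and lane cannot be told apart against saline or the input. The 3 libraries with replicate number 2 stood apart from the other immunopurified libraries. Across all genes, the middle 50% of values spanned more in each of these 3 than in any of the other 6 (the plot of deviations by library). All 12 cholinergic markers lay above the input in all 3 saline libraries (median log2 ratio 5.35 ± 0.14, where ± is the SD of the medians of the 3 libraries), in accord with the label. Most markers of the other cell types were low but present. Of 8 markers of other interneurons, 7 lay below the input in all 3 saline libraries and 1 lay above it. Of 5 markers of D1 spiny projection neurons, 4 lay below it in all 3 and 1 lay on both sides. The 8 markers of spiny projection neurons summed to 997 to 2021 CPM in the saline, 952 to 1814 CPM in the cocaine and 1361 to 1685 CPM in the yoked libraries, against 8087 CPM in the input, and none was at 0 in all 9. The 7 oligodendrocyte markers summed to 224 to 487, 287 to 533 and 313 to 473 CPM, against 2711 CPM in the input. Their part in the results below was not tested.

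Promoters of many mitoribosomal genes carry short sequences bound by factors known for housekeeping and mitochondrial genes, among them the ETS family, NRF1 and YY1. RefSeq promoters (build GRCm38.p6, 300 bases, 250 before to 50 after the start) were matched for 68 of the 77 genes. The letters searched, on both strands, were CCGGAAG for the ETS family, GCGC followed by any base, T and GCGC for NRF1 and AAGATGGC for YY1. The ETS letters end in the AAG with which the YY1 letters begin, so a stretch can hold both. The ETS letters were found in 24 of 68 promoters (35.3%, against 9.12% of all 27025 promoters), the NRF1 letters in 13 (19.1% against 4.78%) and the YY1 letters in 12 (17.6% against 2.88%). At least 1 of the motifs was in 41 of 68 (60.3% against 15.2%). The set of all promoters was not matched to the members for expression or base content, so the excess need not be particular to them. A match describes the letters only and is not a binding site. The 100 bases before the start are shown for 4 genes with high ratios to the input, described below, and 4 with low ratios, so that the sequences of both ends can be compared. They run 5′ to 3′ on the gene's strand, with motif letters in capitals. The start given for Mrpl1, Mrpl45 and Mrps27 lies inside the gene's span.
Mrps6 (chr16:92058236-92058335, plus strand): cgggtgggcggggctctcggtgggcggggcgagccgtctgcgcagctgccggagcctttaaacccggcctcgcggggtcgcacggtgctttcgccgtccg
Mrpl3 (chr9:105053168-105053267, plus strand): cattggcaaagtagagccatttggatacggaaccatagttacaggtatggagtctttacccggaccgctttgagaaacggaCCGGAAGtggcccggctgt
Mrps18a (chr17:46110904-46111003, plus strand): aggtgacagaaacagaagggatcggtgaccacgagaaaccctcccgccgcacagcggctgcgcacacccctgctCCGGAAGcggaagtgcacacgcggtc
Mrpl34 (chr8:71464826-71464925, plus strand): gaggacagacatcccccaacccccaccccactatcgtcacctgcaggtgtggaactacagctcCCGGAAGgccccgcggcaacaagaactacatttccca
Mrpl1 (chr5:96210015-96210114, plus strand): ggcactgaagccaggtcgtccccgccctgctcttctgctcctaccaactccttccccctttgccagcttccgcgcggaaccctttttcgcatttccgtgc
Mrps22 (chr9:98601680-98601779, minus strand): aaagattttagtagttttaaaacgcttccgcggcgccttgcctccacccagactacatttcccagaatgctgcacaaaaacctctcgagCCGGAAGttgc
Mrps27 (chr13:99344686-99344785, plus strand): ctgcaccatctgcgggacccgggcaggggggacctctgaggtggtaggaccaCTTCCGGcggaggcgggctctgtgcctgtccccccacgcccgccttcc
Mrpl45 (chr11:97315616-97315715, plus strand): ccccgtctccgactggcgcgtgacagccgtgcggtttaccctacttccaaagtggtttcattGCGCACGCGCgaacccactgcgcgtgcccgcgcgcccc
The first 4 genes have high ratios and the last 4 have low ones. Genes with and without motifs were picked for show, so the printed share does not stand for the set. Of the 20 genes with the highest and lowest ratios in each subunit, 17 have a promoter in the table. Among these the ETS letters stood in the 100 bases before the start of 3 of 9 high-ratio and 2 of 8 low-ratio genes, all 5 shown here, and in the 300 bases of 6 of 9 and 2 of 8. Mrpl45 carried the NRF1 letters on the minus strand. No motif was found in these windows of Mrps6, the gene with the highest ratio among those with at least 100 counts, or of Mrpl1, among the lowest. Over all promoters, the 23 measured genes with the ETS letters had a median log2 ratio of 1.38 and the 44 without had 1.02, and both sets spanned from near the input to more than 2 on the log2 scale. The ETS letters stood in 31.0% of large and 42.3% of small subunit promoters.

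The first comparison asked how much of this RNA lay on the tagged ribosomes relative to whole striatum. Mitochondrial ribosomal protein genes were about 2-fold higher in the saline immunopurified libraries than in the input, in both subunits. Over its 47 measured genes the large subunit had a median log2 ratio of 1.02 ± 0.10 (2.02-fold), and the small subunit, with 29 genes, one of 1.11 ± 0.04 (2.16-fold; SD over the 3 library medians). In saline libraries 1, 2 and 3 the large subunit median was 1.12, 0.94 and 0.99 and the small subunit median 1.14, 1.06 and 1.13. The difference between the medians, large minus small, was −0.09 ± 0.07 (SD, n = 3), so the subunits lay close together. With only genes that overlap no other gene in the tables, the difference turned to 0.05 ± 0.08. Over all 15888 measured genes the median was −0.17 ± 0.02. In bulk RNA, fewer cells of a type and less RNA per cell cannot be told apart. The input is also total RNA and not RNA on ribosomes, so kind of RNA and cell type cannot be told apart in these ratios. The input has no replicate, so these ratios carry no p value.

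Gene by gene, 71 of 76 measured members lay above the input in all 3 saline libraries, 44 of 47 large and 27 of 29 small, where 35.8% of all measured genes did. Only Mrpl19 lay below it in all 3, where 44.9% of all genes did, and Mrpl1, Mrpl47, Mrps30 and Mrps31 lay on both sides. At least a 2-fold excess in all 3 libraries was seen for 30 members, 15 of each subunit (12.2% of all genes), and a 2-fold deficit for 0 members (23.1%). Across all 9 immunopurified libraries, 65 of 76 members lay above the input in every library, 42 large and 23 small, and 28.0% of 15921 genes did. Scaling by TMM in place of gene totals raised every ratio by 0.09 on average on the log2 scale, which put 73 members above the input in all 3 saline libraries and 0 below it, Mrpl19 included.

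**Figure D1:**
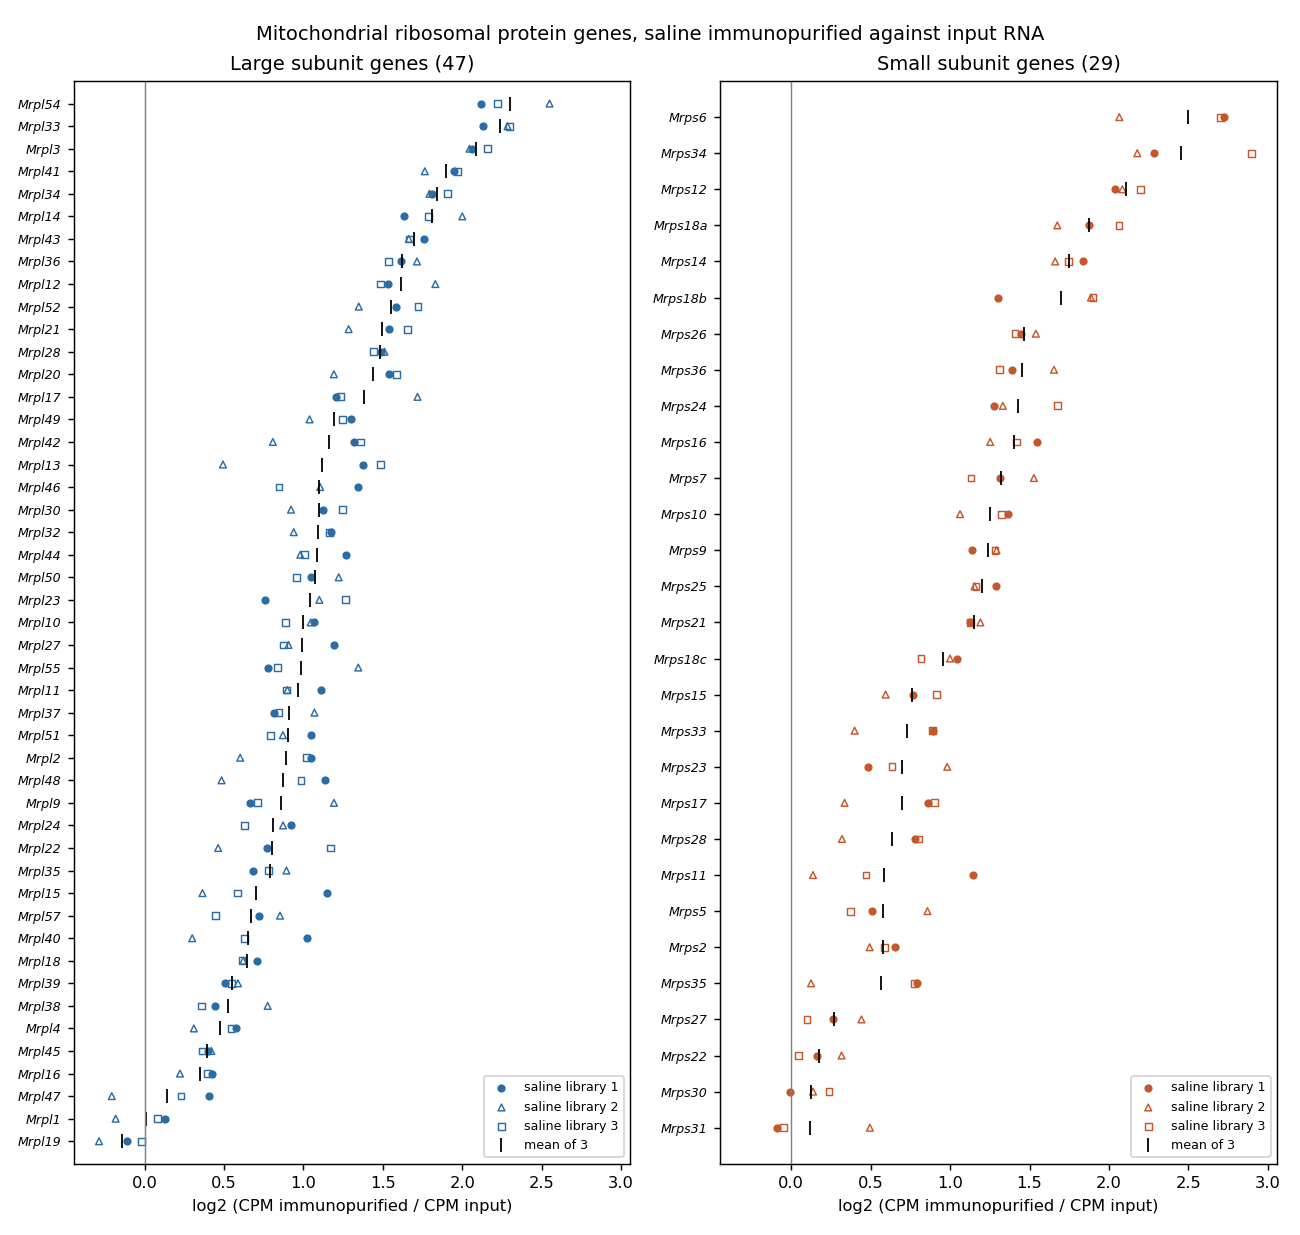
Log2 ratio of immunopurified to input CPM for each measured gene of the large (47) and small (29) subunit, in saline libraries 1 to 3 (symbols) with their mean (bar); 0 is the input level. Mrpl19 alone lies below 0 in all 3 libraries with gene-total scaling (no gene does with TMM), and 71 of 76 genes lie above 0 in all 3.

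Among large subunit genes, Mrpl54, Mrpl33, Mrpl3, Mrpl41 and Mrpl34 had the highest ratios. Mrpl3, a core protein of the large subunit with a bacterial counterpart (chromosome 9, 105053268 to 105077466; all gene spans are mm10), had an input level of 51.7 CPM and levels of 216, 214 and 231 CPM in saline libraries 1 to 3. The 3 libraries were close to one another, and the log2 ratio was 2.09 ± 0.06 (SD, n = 3; 4.26-fold). Mrpl33 (chromosome 5, 31613951 to 31622644) measured 17.6 CPM in the input and 77.2, 85.8 and 86.4 CPM in the saline libraries, a log2 ratio of 2.24 ± 0.09 (4.72-fold). Mrpl54, which has no bacterial counterpart (chromosome 10, 81264722 to 81266926), measured 4.13 CPM in the input and 17.96, 24.2 and 19.3 CPM in the saline libraries, a log2 ratio of 2.30 ± 0.22 (4.92-fold). Its second library stood above the other 2. Mrpl41, another protein of mitochondria alone, had a log2 ratio of 1.89 ± 0.11 and Mrpl34 one of 1.84 ± 0.06. Among all measured genes these 5 lay between percentile 94.0 for Mrpl34 and 96.3 for Mrpl54.

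At the low end of the large subunit stood Mrpl19, Mrpl1, Mrpl47, Mrpl16 and Mrpl45. Mrpl19 (chromosome 6, 81957826 to 81965949) measured 33.0 CPM in the input and 30.6, 27.1 and 32.5 CPM in the saline libraries, a log2 ratio of −0.14 ± 0.14 (SD, n = 3). That value depended on the libraries used, because over all 9 immunopurified libraries it was 0.05 ± 0.26, with yoked library 2 at 50.4 CPM. Mrpl1 (chromosome 5, 96209498 to 96266727) measured 20.7 CPM in the input and 22.6, 18.2 and 21.9 CPM, a log2 ratio of 0.01 ± 0.17. For Mrpl47, whose protein is a homologue of bacterial L29, the log2 ratio was 0.14 ± 0.32, with saline library 2 below the input at 8.62 against 9.95 CPM. Mrpl16 stood at 0.35 ± 0.11 and Mrpl45, which lies at the exit of the peptide tunnel and helps tie the ribosome to the inner membrane, at 0.39 ± 0.03. Mrpl19 lay at percentile 51.8 of all measured genes, so even the lowest member was near the middle of all genes.

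In the small subunit, Mrps6, Mrps12, Mrps18a, Mrps14 and Mrps18b had the highest ratios among genes with at least 100 counts in the input or the mean saline library. Mrps6, a protein with a bacterial counterpart (chromosome 16, 92058336 to 92112227), measured 10.1 CPM in the input and 66.5, 42.1 and 65.6 CPM in saline libraries 1 to 3. Saline library 2 was lower than the other 2 and still 4-fold or more above the input; the mean log2 ratio was 2.497 ± 0.37 (5.64-fold). Summed saline counts against input counts gave a ratio of 5.80, with an exact 95% counting interval of 5.24 to 6.42. The gene of Slc5a3, a transporter of inositol, overlaps Mrps6, and it stood at a log2 ratio of 0.19 ± 0.26 with 70.7 CPM in the input, well below that of Mrps6. Mrps12, whose bacterial counterpart is part of the decoding site (chromosome 7, 28739641 to 28741821), measured 13.5 CPM in the input and 55.4, 57.2 and 61.9 CPM in the saline libraries, a log2 ratio of 2.11 ± 0.08. Mrps14 had a log2 ratio of 1.75 ± 0.09.

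The bacterial S18 protein has 3 mitochondrial relatives in mouse, Mrps18a, Mrps18b and Mrps18c. Mrps18a (chromosome 17, 46111004 to 46128908) measured 22.4 CPM in the input and 82.2, 71.5 and 93.6 CPM in the saline libraries, a log2 ratio of 1.87 ± 0.19. Mrps18c (chromosome 5, 100798759 to 100804467) measured 17.99 CPM in the input and 37.0, 35.96 and 31.7 CPM, a log2 ratio of 0.95 ± 0.12. The saline ranges of the 2 log2 ratios did not overlap. Mrps18b (chromosome 17, 35910380 to 35916440) had only 50 counts in the input, 1.22 CPM, and 3.01, 4.52 and 4.56 CPM in the saline libraries, a log2 ratio of 1.70 ± 0.34. Its levels in the other groups were 4.32, 1.502 and 3.70 CPM in the cocaine and 4.44, 0.494 and 4.004 CPM in the yoked libraries, so its ratio over all 9 libraries was 1.23 ± 1.08.

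Low ratios in the small subunit belonged to Mrps31, Mrps30, Mrps22, Mrps27 and Mrps35, all numbered beyond the bacterial set. Mrps22, a protein mutated in a human mitochondrial disorder (chromosome 9, 98588730 to 98601679), measured 14.1 CPM in the input and 15.8, 17.6 and 14.6 CPM in the saline libraries, a log2 ratio of 0.17 ± 0.14. Mrps27, an RNA-binding protein with pentatricopeptide repeats (chromosome 13, 99344767 to 99415562), measured 12.4 CPM in the input and 14.8, 16.8 and 13.3 CPM, a log2 ratio of 0.27 ± 0.17. Both stayed above the input in all 3 libraries by less than 2-fold. The log2 ratio was 0.12 ± 0.33 for Mrps31, 0.12 ± 0.12 for Mrps30 and 0.56 ± 0.38 for Mrps35.

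Few counts limit 5 members. Mrpl53, which overlaps Ccdc142, was listed at 0 in all 10 libraries, where 3 counts would be 0.0733 CPM in the input, and it entered no ratio or test. Mrpl23 had 17 input counts and a pooled ratio of 2.14 (exact 95% counting interval 1.26 to 3.83). Mrps34 had 21 input counts and 5.86 (3.76 to 9.60), and Mrps36 had 72 and 2.73 (2.13 to 3.55). For Mrps18b the pooled ratio was 3.39 (2.52 to 4.65). Intervals and floors cover counting error only.

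Members whose proteins have a bacterial counterpart can be set against those found only in mitochondrial ribosomes. Split by number, as Mrpl1 to Mrpl36 and Mrps2 to Mrps21 against the rest, the 44 bacterial-type members had a median log2 ratio of 1.12 ± 0.06 and the 32 measured others 0.94 ± 0.09 (SD of the library medians, n = 3). The gap lay in the small subunit, at 1.22 ± 0.01 for 16 bacterial-type against 0.70 ± 0.17 for 13 other genes, while the large subunit had 1.08 ± 0.13 for 28 and 0.96 ± 0.10 for 19. Mrpl47, Mrpl55, Mrps24 and Mrps28 have bacterial counterparts despite their numbers. With these 4 moved, the medians were 1.21 ± 0.01 and 0.69 ± 0.17 in the small subunit and 1.05 ± 0.10 and 1.03 ± 0.10 in the large. All 16 bacterial-type small subunit genes lay above the input in all 3 libraries, and 11 of the 13 others did. Over all 9 immunopurified libraries the small subunit medians, split by number, were 1.24 ± 0.06 and 0.77 ± 0.18. In cocaine library 2 they were 1.17 and 1.16. Mrps18a, among the highest ratios, stayed in the bacterial-type small subunit set. Mrps30, among the lowest, and Mrps36 stayed in the other set. This split was not redone with their structural assignment. The difference between these sets was not tested.

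Ratios of other genes of mitochondrial translation were described in the same way, from lists of their roles. Of 6 mitoribosomal proteins named outside the Mrpl and Mrps scheme, 5 lay above the input in all 3 libraries, with a median log2 ratio of 1.12 ± 0.11. Aurkaip1 stood highest at 1.70 and Gadd45gip1 next at 1.44, while Dap3, a GTP-binding protein of the small subunit, stood at 0.45 and Ptcd3 at −0.07. Cytosolic ribosomal protein genes, whose products build the ribosome that was purified, had a median of 1.15 ± 0.28 over 80 measured genes, with 70 above the input. Mitochondrial translation factors had 0.43 ± 0.04 over 22 genes, with 14 above and 2 below in all 3 libraries, from Gatb at 2.03 and Slirp at 1.82 to Gatc at −0.23 and Guf1 at −0.60. Factors that assemble the mitoribosome had 0.49 ± 0.11 over 25 genes, with 15 above and 4 below, from Mpv17l2 at 2.28 and Ngrn at 1.73 to Mterf4 at −0.72 and Rpusd4 at −0.89. Mitochondrial tRNA synthetases, which load amino acids onto tRNA, had −0.08 ± 0.38 over 17 genes, with 3 above and 6 below. Among them Nars2 stood at 1.61 and Rars2 at 0.93, and Pars2 at −0.89 and Mars2 at −1.14.

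**Figure D2:**
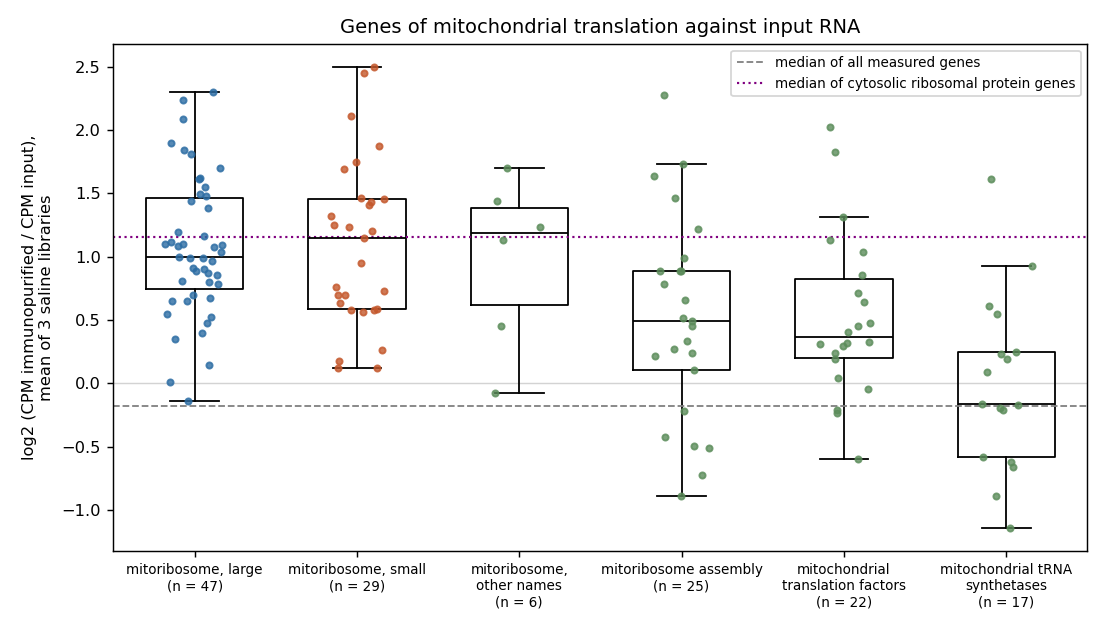
Mean log2 ratio of immunopurified to input CPM over 3 saline libraries for each gene (points) of the mitoribosome and of other mitochondrial translation genes; boxes show the median and quartiles over genes and whiskers reach the farthest point within 1.5 box lengths. The dashed line is the median of all measured genes and the dotted line that of cytosolic ribosomal protein genes. Box medians are taken over gene means and so differ slightly from the library medians in the text.

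The second comparison asked whether the level differed between the treatment groups. Summed over the 77 genes, CPM was 3350, 3251 and 3327 in the saline, 3290, 3255 and 3199 in the cocaine and 3253, 3548 and 3056 in the yoked libraries, against 1471 in the input. Group means were 3310 ± 51.7, 3248 ± 45.9 and 3286 ± 248 CPM (SD, n = 3), and the 3 groups overlapped. The yoked group held both the highest library, replicate 2, and the lowest, replicate 3. Without replicate 2 the means were 3339, 3245 and 3155 CPM, and the order of yoked and cocaine turned around. The large subunit summed to 2309 ± 16.7, 2259 ± 30.6 and 2281 ± 208 CPM (1030 CPM in the input). All 3 saline libraries, at 2299 to 2329 CPM, lay above all 3 cocaine libraries, at 2232 to 2292 CPM. Leaving out replicate 2 cannot change that order. The yoked libraries, at 2081 to 2496 CPM, spanned both. These sums use gene-total scaling, the nearest saline and cocaine sums were 2299 and 2292 CPM, and the 2 groups differ in lane. In the TMM-scaled fit below, large subunit genes had a median log2 fold change of −0.02 for cocaine against saline, 23 higher and 24 lower. The small subunit summed to 1000.2 ± 41.2, 989.6 ± 19.5 and 1005 ± 41.2 CPM (440.7 CPM), and the groups overlapped.

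**Figure D3:**
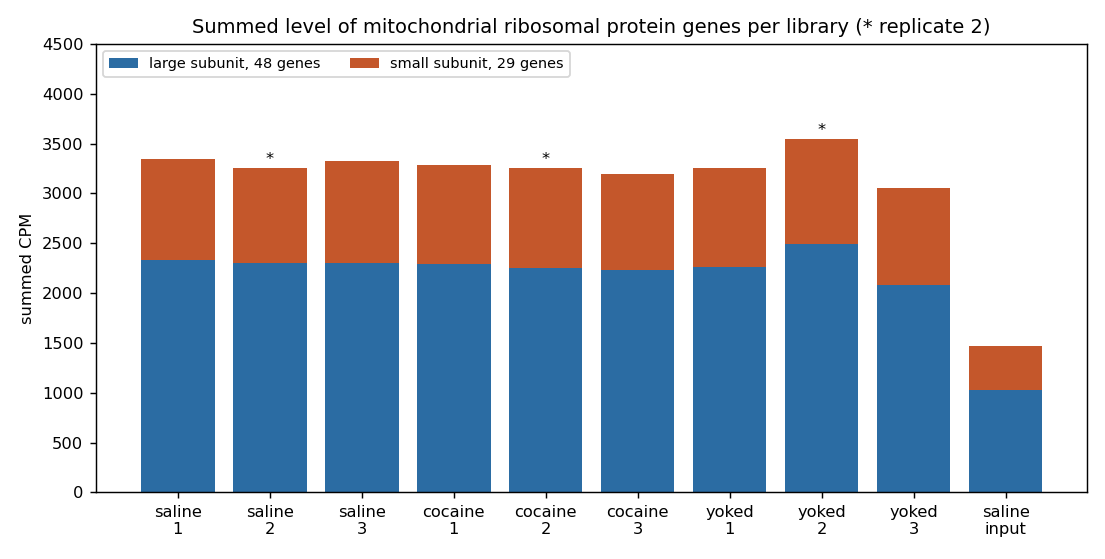
Summed CPM of the large (48) and small (29) subunit genes in each of the 9 immunopurified libraries and the input, with an asterisk on replicate 2 of each group. The immunopurified sums lie between 3056 and 3548 CPM, each more than 2-fold the input sum of 1471 CPM.

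Set against the same input, the median log2 ratio of the large subunit was 1.02 ± 0.10 in saline, 1.01 ± 0.01 in cocaine and 0.98 ± 0.13 in yoked libraries (SD of the library medians, n = 3), and 1.06, 1.0005 and 0.93 without replicate 2. For the small subunit it was 1.11 ± 0.04, 0.999 ± 0.14 and 1.06 ± 0.06, and 1.13, 0.92 and 1.03 without replicate 2. In the small subunit the 3 saline libraries ranged from 1.06 to 1.14 and the 3 cocaine libraries from 0.88 to 1.16, so the groups overlapped. Cocaine library 2 was the highest of all 9 there, at 1.16, and the other 2 cocaine libraries, at 0.96 and 0.88, were the lowest.

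No member passed the test in any comparison. In the quasi-likelihood F-test of edgeR over 14989 genes with Benjamini-Hochberg adjustment, 0 of 76 members and 0 of all genes (0.0%) were called in any of the 3 pairwise comparisons or for any difference among the groups. DESeq2 also called 0 members. At an unadjusted p under 0.05, cocaine against saline had 2 members (5.28% of all genes), cocaine against yoked had 0 (2.61%), yoked against saline had 0 (2.18%) and any difference had 0 (2.8%). In the same order, the smallest adjusted p of a member in the 3 pairwise comparisons was 0.850, 0.9997 and 0.999. A median member had a 95% interval of ± 0.44 around its log2 fold change, against 0.64 for all genes. These intervals are not adjusted for the number of genes tested. Shifts of this size, and larger ones, could therefore go uncalled gene by gene with 3 libraries a group.

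As a list, the members sat close to 0 in each comparison. For cocaine against saline 38 were higher and 38 lower, with a median log2 fold change of 0.02 (all genes 0.0049). Cocaine against yoked had 46 higher and 30 lower and a median of 0.06 (all genes 0.0011), and yoked against saline had 29 higher and 47 lower and a median of −0.04 (all genes −0.01). These comparisons share libraries pairwise. Without replicate 2 the medians were −0.05, 0.01 and −0.06, so the sign for cocaine against saline turned. Groups did not overlap for 8 of 76 members in cocaine against saline (10.3% of all genes), 4 in cocaine against yoked (6.78%) and 3 in yoked against saline (7.05%).

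**Figure D4:**
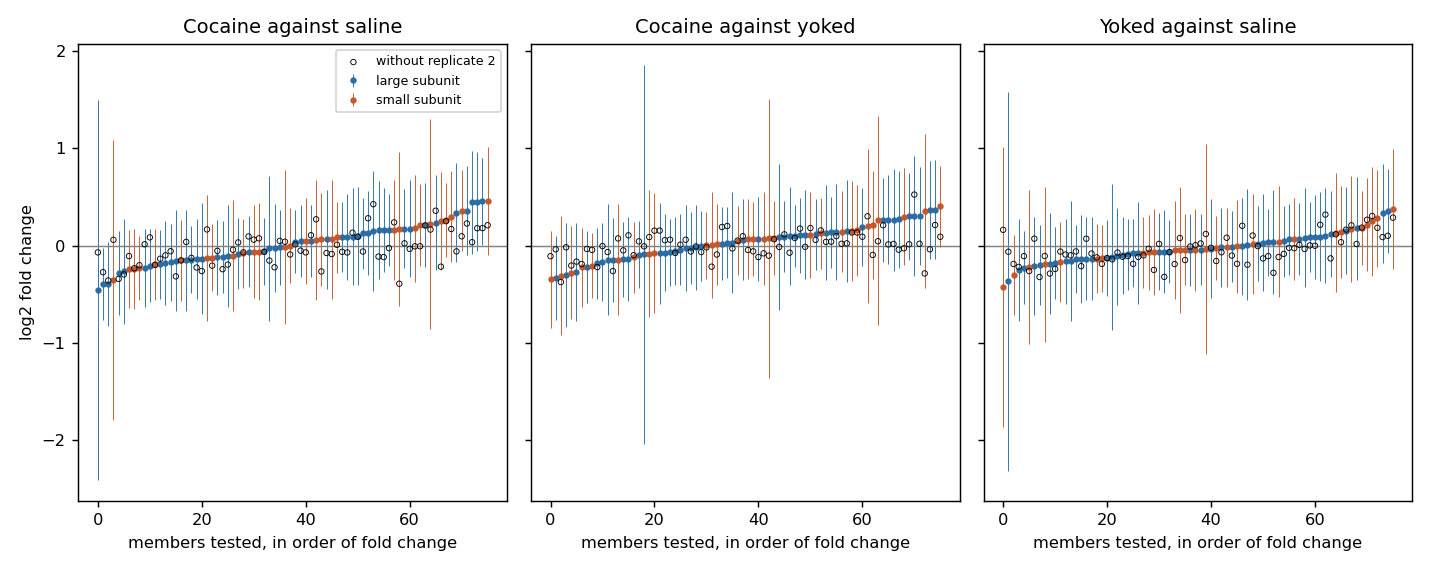
Fitted log2 fold change of the 76 tested members in each comparison, in order of size, with 95% intervals (lines) and colours for the subunits; open circles give the value fitted without the 3 replicate 2 libraries. The 3 medians are 0.02, 0.06 and −0.04, and no member passed the adjusted threshold.

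The members with the smallest p did not pass, and several fold changes were smaller without the replicate 2 libraries. Mrpl4, a large subunit protein (chromosome 9, 21001252 to 21008839), measured 32.3, 26.9 and 31.7 CPM in the saline, 37.8, 49.6 and 35.4 CPM in the cocaine and 32.3, 31.3 and 38.9 CPM in the yoked libraries. All cocaine values were above all saline values, with cocaine library 2 highest. Its log2 fold change for cocaine against saline was 0.46 ± 0.21 (SE; edgeR adjusted p = 0.850), and 0.18 without replicate 2. Mrpl50 (chromosome 4, 49512597 to 49521083) measured 112, 127 and 106 CPM in the saline, 90.6, 77.1 and 91.2 CPM in the cocaine and 104, 127 and 78.9 CPM in the yoked libraries. Here all cocaine values were below all saline values, and the log2 fold change was −0.40 ± 0.17 (edgeR adjusted p = 0.850), and −0.27 without replicate 2. Mrpl33, one of the genes with the highest ratio to the input, measured 57.9, 59.0 and 71.0 CPM in the cocaine and 64.8, 114 and 65.2 CPM in the yoked libraries, against the saline values given above. Its log2 fold change was −0.39 ± 0.20 for cocaine against saline and −0.36 without replicate 2, and −0.33 for cocaine against yoked, which shrank to −0.04 without replicate 2.

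Mrps2, a small subunit protein (chromosome 2, 28465951 to 28471177), measured 50.1, 44.8 and 47.9 CPM in the saline, 55.0, 74.6 and 50.7 CPM in the cocaine and 46.3, 42.7 and 51.1 CPM in the yoked libraries. Cocaine library 2 stood alone, and the log2 fold changes of 0.36 ± 0.20 against saline and 0.40 ± 0.20 against yoked became 0.10 and 0.09 without replicate 2. Mrpl10, a protein at the base of the stalk that recruits translation factors (chromosome 11, 97041582 to 97049213), showed the same layout, with 66.3, 131 and 71.8 CPM in the cocaine and 74.8, 76.6 and 64.4 CPM in the yoked libraries. Its log2 fold change for cocaine against yoked was 0.37 ± 0.24, and −0.04 without replicate 2. Mrpl15 was the other member named on the higher side, at 0.45 ± 0.24 for cocaine against saline (0.18 without replicate 2) and 0.37 ± 0.24 for cocaine against yoked (0.21). Lower for cocaine were Mrps14, at −0.23 ± 0.15 against saline and −0.20 ± 0.15 against yoked (−0.04 without replicate 2), and Mrps10, at −0.34 ± 0.23 against yoked (−0.11).

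For yoked against saline, Mrpl19 had a log2 fold change of 0.35 ± 0.20 (0.10 without replicate 2). Mrpl48 stood at 0.33 ± 0.24 (0.09) and Mrps11 at 0.38 ± 0.29 (0.29). On the lower side were Mrps18c at −0.30 ± 0.19 (−0.19 without replicate 2), Mrpl17 at −0.23 ± 0.18 (−0.11) and Mrpl32 at −0.20 ± 0.19 (−0.32). None of these passed, with edgeR adjusted p of 0.999 for each of the 6.

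Across the 9 immunopurified libraries the members varied little. The median SD of log2(CPM + 0.5) was 0.20 for 76 members, 0.20 for the large and 0.21 for the small subunit, against 0.36 for 15239 genes with at least 10 counts in 3 libraries or more. More reads lay behind a member than behind a gene in general, with medians of 34.5 and 14.7 CPM not corrected for length, and the part of read number in this was not tested. Mrpl18, at 0.07, and Mrps9, at 0.08, varied least. Mrps18b, at 0.80, varied most, with yoked library 2 at 0.494 CPM, followed by Mrps35 at 0.42 and Mrps30 at 0.38, whose lowest values were in yoked library 2 (5.66 CPM) and cocaine library 2 (8.06 CPM). Replicate 2 libraries held the highest value for 44 of 76 members and the lowest for 42, against 16 and 12 for replicate 1 and 16 and 22 for replicate 3. These 3 libraries differed among themselves. Saline library 2 held the highest value for 9 members and the lowest for 18, cocaine library 2 for 18 and 18, and yoked library 2 for 17 and 6. Saline and yoked library 2 had 36.4% and 36.3% of reads not uniquely placed. The other 7 immunopurified libraries had 46.5% to 57.1%, among them cocaine library 2 at 56.2%. The part of this share in these values was not tested.

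**Figure D5:**
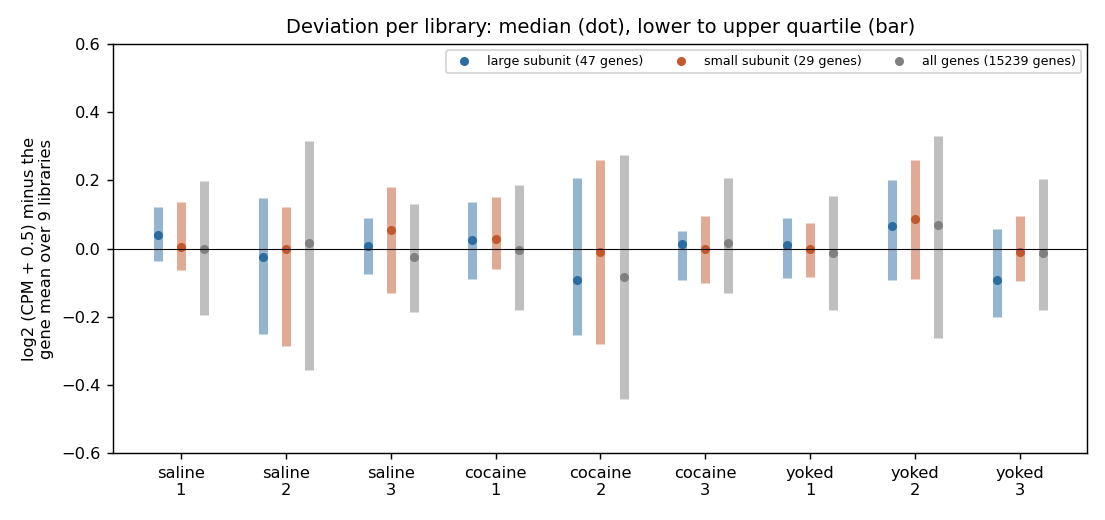
Deviation of each gene's log2(CPM + 0.5) from its mean over 9 libraries, as the median (dot) and the lower to upper quartile (bar) per library, for the large (47) and small (29) subunit and for 15239 genes. Bars are widest in the replicate 2 libraries for all genes, and the medians of both subunits stay within 0.1 of 0 on the log2 scale.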

How the data were processed

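The authors deposited 1 table of unnormalised read counts for each library, by gene symbol. The submitters' processing notes name STAR 2.0.0e, HTSeq and mm10. The annotation and strand setting are not given in the sources used here. It is therefore not known which reads of overlapping genes were counted to a member, counted to its neighbour or set aside as ambiguous. Of the 77 members, 20 overlap a gene whose symbol is in the count tables. Mrpl33, Mrpl43, Mrps9, Mrps18b and Mrps28 overlap only genes whose symbols are not in them, and they were counted as members without an overlapping gene. Reads not assigned to a gene (35.4% to 57.1% not uniquely placed, 7.04% to 15.2% on no counted feature and 0.976% to 4.49% ambiguous) were left out of library totals.

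Members, lists and alternatives were chosen with earlier results of these data known. All 9 immunopurified libraries entered 1 fit of edgeR 4.0.16 (R 4.3.3; robust quasi-likelihood F-test, TMM scaling, filter at a minimum count of 10 and total of 15), with 6 residual degrees of freedom. The filter kept 14989 of 22641 genes with a count, and 76 of 77 members. A gene was called at a Benjamini-Hochberg adjusted p under 0.05. DESeq2 1.42.0 was an alternative. The fit was tested on simulated counts for cocaine against saline over 14989 genes, with 100 genes of at least 5 CPM changed 2-fold and 100 changed 4-fold. It called 50% and 97% of these, with 12 false calls among 159. The simulated counts were drawn independently for each library from the fitted dispersion of each gene. They held no effect shared by replicate number and no wider spread in replicate 2, so these rates need not hold for the real libraries. Ratios to the input used gene-count totals, for genes with at least 20 counts in the input or the mean saline library, and have no test because there is 1 input. For the counts of reads in a pooled ratio, the interval is exact binomial.

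Named in a treatment comparison were the 3 members with the smallest p in each direction, and against the input the 5 highest and 5 lowest ratios of each subunit with at least 100 counts, the Mrps18 relatives, and 2 at each end of the other lists. Levels of single members were not ranked against each other, because transcript lengths were not used here.

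Same-numbered libraries were checked for pairing by the correlation of their deviations from group means. It was 0.107 to 0.153 for cocaine with yoked, 0.130 to 0.177 for yoked with saline and 0.0776 to 0.107 for cocaine with saline. Each of the 9 libraries correlated best with its own number. The numbers were therefore read as a possible pairing across the 3 groups, weakest for cocaine with saline, from the data and not from the labels. The main fit did not use this pairing, and a fit with replicate number as a block was an alternative.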

Additional observations from a re-analysis of the deposited data

How the results depend on the processing

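No member was called under any of 14 alternatives per comparison: DESeq2, no filter, library-size scaling, the replicate block, each library left out in turn and all replicate 2 libraries left out. Without the filter on low counts, cocaine against saline called 60 genes, cocaine against yoked 27 and yoked against saline 18, against 0 with it, and none was a member. With 1 library or all replicate 2 libraries left out, the median log2 fold change of the members ranged from −0.052 to 0.037 in cocaine against saline, from 0.0052 to 0.091 in cocaine against yoked and from −0.078 to 0.024 in yoked against saline, so 2 of the 3 medians changed sign. With replicate number as a block the medians were 0.02, 0.06 and −0.04 and the pairing changed no call. The small subunit median log2 ratio to the input moved by more than its spread, from 1.11 to 1.198 with TMM scaling, 0.99 with a pseudocount of 1 CPM, 1.06 each with a count minimum of 100, with all 9 libraries, with the structural assignment of Mrps18a, Mrps30 and Mrps36, or without overlapping genes, and 1.03 without replicate 2 in the 6 remaining libraries. The large minus small difference became 0.052 without overlapping genes. Leaving out each saline library gave 0.96 to 1.06 for the large and 1.10 to 1.13 for the small subunit, a difference of −0.13 to −0.07, and 71 to 73 members above the input. Of the named members, Mrpl10 reversed for cocaine against yoked, to −0.045 without cocaine replicate 2 and −0.037 without all replicate 2 libraries, where leaving out single libraries otherwise reached 0.55. The causes were not tested. The structural assignment, the set without overlapping genes and the 4 members moved by homology were chosen after seeing the data.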

Other observations

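Among the other genes of mitochondrial translation, Lars2, the leucyl-tRNA synthetase of mitochondria, varied widely between libraries. It measured 3089 CPM in the input and 3728, 1789 and 5340 CPM in saline libraries 1 to 3, 3287, 1042 and 6703 CPM in the cocaine libraries and 5311, 944 and 7858 CPM in the yoked libraries. In each group the replicate 2 library was lowest and the replicate 3 library highest. The 17 tRNA synthetase genes together summed to 1170 to 8035 CPM, and Lars2 alone made up most of this sum in every library. Nars2, the next highest of them, reached at most 69.1 CPM, in yoked library 2, so the wide range was that of Lars2 and not of the list. The 77 mitochondrial ribosomal protein genes stayed between 3056 and 3548 CPM in the same 9 libraries. In the input the next highest of the list, Wars2, measured 20.7 CPM. Whether all reads counted under Lars2 came from its messenger RNA was not tested, so these values need not be its level. Lars2 was singled out after its values were seen, and no test was made of this pattern.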
